A study of Homo sapiens with 6 samples.

Results

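The keratins described here are 9 genes of the intermediate filament family, KRT7, KRT8, KRT18, KRT19, KRT15, KRT17, KRT80, KRT81 and KRT86, chosen by name among 61228 gene rows of an RNA-seq count table. They and the gene lists below were chosen with earlier results of these data known. All 9 had a row, and 7 passed the filter on low counts. KRT17 and KRT81 did not. KRT15 and KRT17 are keratins of basal and follicular epithelium rather than of simple epithelium or of hair, so the set is wider than simple and hair-type keratins. The libraries are polyadenylated RNA from MDA-MB-231, a human breast cancer line of basal, mesenchymal character, cultured inside droplets of collagen I gel. The KO group is 3 libraries of cells nucleofected with Cas9 and guide RNAs against ETV1, ETV4 and ETV5, a family of ETS transcription factors. The control group is 3 libraries of cells nucleofected with Cas9 and control guide RNAs and cultured in the same kind of gel. In the sample titles the KO is of ETV4 only, whereas the treatment field lists all 3 genes, and the KO library names share the tag c39, which is not explained. Whether the KO libraries come from a single clone, and which of the stated gel concentrations each sample had, is not given in the sources used here.

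Keratin filaments are obligate heteropolymers in which an acidic type I chain pairs with a basic type II chain. KRT8 and KRT18 are the classic pair of simple, single-layered epithelia. KRT19 is an additional type I partner and KRT7 an additional type II partner in glands and ducts, including those of the breast. KRT15 and KRT17 are type I chains of basal and hair follicle epithelium, KRT80 is a type II chain of many epithelia, and KRT81 and KRT86 are type II chains of the hair cortex. Cells of mesenchymal character carry vimentin filaments beside whatever keratins they keep.

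A pair of sequence comparisons shows which keratin counts can be read gene by gene. They are reference coding sequence (GENCODE release 29 transcripts, GRCh38), and each is the most similar 90-base stretch, within an exon of both genes, of a pair of members. KRT19 and KRT15 are neighbours on chromosome 17 and were the members with the most negative log2 fold changes. Even in their most similar stretch they differ at 7 of 90 bases, shown in capitals, and over the whole coding sequence 71.8% of aligned bases were identical.
KRT19, exon 3, chr17:41524851-41524940, minus strand: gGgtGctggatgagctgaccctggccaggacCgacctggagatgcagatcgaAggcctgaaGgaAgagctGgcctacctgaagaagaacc
KRT15, exon 3, chr17:41516816-41516905, minus strand: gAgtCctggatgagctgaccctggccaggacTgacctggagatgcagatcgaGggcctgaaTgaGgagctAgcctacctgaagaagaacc
The hair keratins KRT81 and KRT86 lie on opposite strands of chromosome 12 and had no difference in their most similar stretch, with 93.5% identity over the coding sequence.
KRT81, exon 1, chr12:52291316-52291405, minus strand: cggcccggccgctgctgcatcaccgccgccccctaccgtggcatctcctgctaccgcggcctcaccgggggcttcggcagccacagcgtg
KRT86, exon 3, chr12:52301977-52302066, plus strand: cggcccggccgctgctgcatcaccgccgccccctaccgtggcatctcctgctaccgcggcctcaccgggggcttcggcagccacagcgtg

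Cut into windows of 50 bases, the main transcript of KRT19 shared 1.79% of its windows with transcripts of any other gene, KRT15 0.328% and KRT80 0.420%. Few stretches of these 3 genes could thus be assigned to another annotated gene. KRT7 shared 10.8%, mostly with its antisense gene KRT7-AS. KRT8 shared 36.9% and KRT18 47.6% with other genes. For KRT8 these were mainly its processed pseudogenes. For KRT18 they were mainly KRT8, which overlaps KRT18 on the opposite strand, and its own pseudogenes. KRT81 shared 44.6% and KRT86 40.5%, most of it with each other, so the division of reads between the hair keratins is uncertain. In the count table the 51 KRT8 pseudogene rows held 1.61% to 1.74% as many counts as KRT8 in KO libraries and 1.83% to 2.05% in controls. The 67 KRT18 pseudogene rows held 0.127% to 0.217% as many as KRT18 in KO libraries and 0.0333% to 0.285% in controls.

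Library totals were 18042601 to 19250921 counts in KO and 18806653 to 23232770 in control libraries, and no pair of replicates matched within sampling noise (lowest chi-square per degree of freedom 4.19, control replicates 1 and 2). Separate cultures per replicate are not stated, so the p-values reflect the spread among these libraries alone, and that spread may be technical. Levels are given as CPM, read counts relative to library size scaled with TMM factors (edgeR cpm), and changes as the log2 fold change (log2 FC) of KO over control, printed ± its standard error (SE) from the fit. A gene passed where edgeR's quasi-likelihood test gave a Benjamini-Hochberg adjusted p under 0.05 over all 14704 tested genes. The libraries numbered 3 stood apart from the rest in both groups. Deviations of same-numbered libraries correlated at 0.55, 0.45 and 0.83, but KO replicate 1 with control replicate 2 (0.58) and KO replicate 2 with control replicate 1 (0.59) correlated as highly, so the values do not single out how replicates 1 and 2 pair. Values from the same test with the replicate number as a block are given where they change a call, and a fit with a term only for the libraries numbered 3, added after the data were seen, made the same calls among the members. Of the targeted genes, ETV1 (log2 fold change -0.65) and ETV4 (-0.56) were lower in KO and ETV5 was not (0.01). Markers of the labelled cells were present, with 5 of 6 mesenchymal breast cancer markers above 1 CPM and SPARC at 0.510 CPM or less. Of 6 luminal epithelial markers ESR1, PGR and CDH1 were near 0 and EPCAM, GATA3 and FOXA1 were above 1 CPM. The luminal markers summed to 32.4 to 37.4 CPM in KO and 28.7 to 33.3 CPM in control. Leukocyte markers summed to 1.87 to 2.37 CPM in KO and 6.19 to 6.80 CPM in control, most of it LYZ, with CD3E at 0 counts. Endothelial markers summed to 5.78 to 8.46 CPM in KO and 9.73 to 11.0 CPM in control, with CDH5 at 0 counts. Fibroblast markers summed to 11.9 to 13.8 CPM in KO and 13.2 to 13.5 CPM in control, most of it COL1A1. The part of any of these in the keratin values was not tested.

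Of the 9 keratins, KRT19 was the one that fell without further terms in the fit. This smallest of the keratins, a type I chain of ducts and a common marker of carcinoma cells in blood and lymph nodes, is encoded on chromosome 17 (ENSG00000171345, GRCh38, 41523617 to 41528308, minus strand). It had 410, 391 and 416 CPM in KO replicates 1, 2 and 3, against 715, 670 and 727 CPM in control replicates 1, 2 and 3. The groups lie far apart, and the highest KO library is well below the lowest control library. The counts behind these values were 7659, 7524 and 7561 reads in KO and 15133, 12433 and 17103 reads in control. KRT19 averaged 406 ± 13.4 CPM in KO and 704 ± 30.2 CPM in control (SD, n = 3 each), a log2 FC of -0.80 (± 0.06 SE, edgeR adjusted p = 2.08e-04), or 1.74-fold lower. Within numbered pairs of libraries the difference, KO minus control, was -0.80, -0.78 and -0.80 on the log2 scale. Of the 14704 tested genes, 453 had a more negative log2 fold change. In bulk RNA, fewer cells that express a gene and less RNA per cell cannot be told apart.

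**Figure D1:**
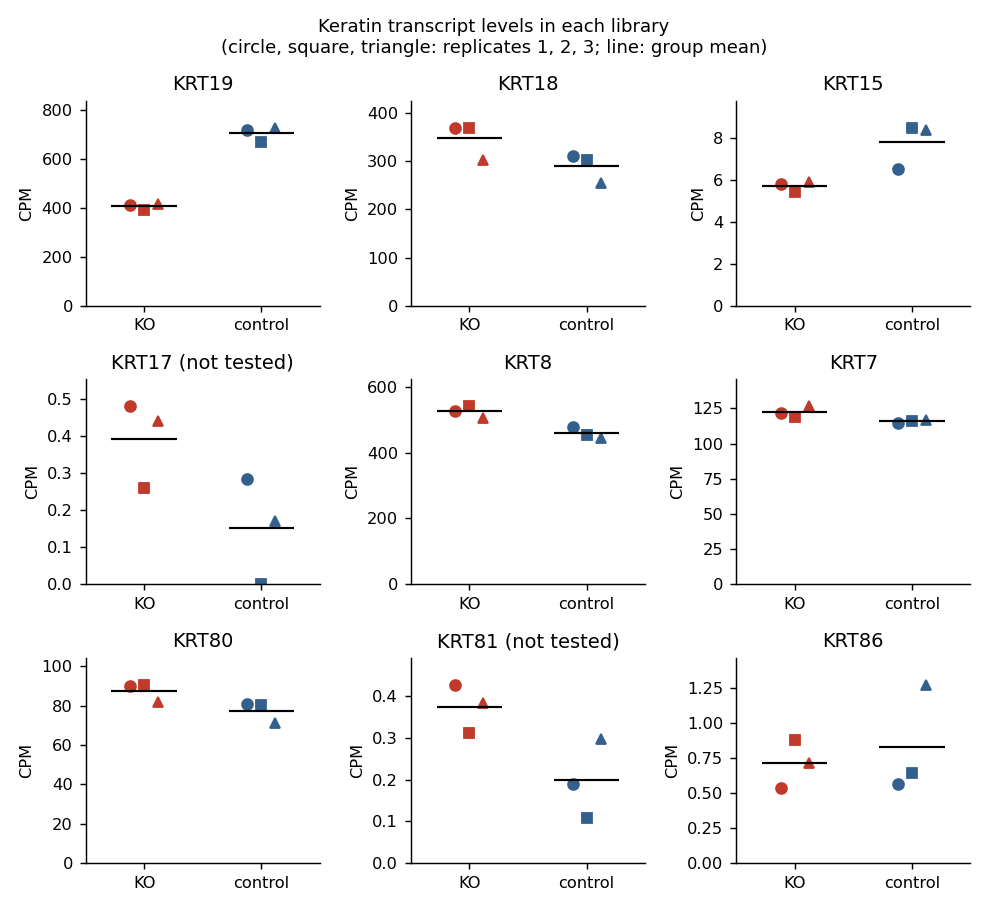
CPM of each of the 9 keratins (vertical axes, linear, from 0) in the 3 KO and 3 control libraries, with circles, squares and triangles for replicates 1, 2 and 3 and a line at the group mean. KRT19 is at 391 to 416 CPM in KO and 670 to 727 CPM in control, while KRT18, KRT8 and KRT80 have higher KO means with triangles that sit low in both groups for KRT18 and KRT80.

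KRT15, the other type I keratin with a lower level, is a chain of basal keratinocytes and of follicle stem cells and stands beside KRT19 in the genome (ENSG00000171346, chromosome 17, 41513743 to 41522529, minus strand). It had 5.84, 5.45 and 5.89 CPM in KO replicates 1, 2 and 3, against 6.52, 8.51 and 8.42 CPM in control replicates 1, 2 and 3. The groups do not overlap, but control replicate 1 is closer to the KO libraries than to the other controls. The log2 FC was -0.45 (± 0.14 SE) and did not pass (edgeR adjusted p = 0.0847). With the replicate block KRT15 fell (log2 FC -0.44 ± 0.14, edgeR adjusted p = 0.00854). Within numbered pairs 1, 2 and 3 its difference was uneven, at -0.16, -0.64 and -0.52 on the log2 scale. KRT15 passed in none of the 6 fits with a library left out (edgeR adjusted p 0.0701 to 0.262). KRT15 stood at 1.40 to 1.42 counts for every 100 of KRT19 in KO libraries and at 0.912 to 1.27 in controls.

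KRT18 is the main type I partner of KRT8 and is encoded within the type II cluster on chromosome 12 (ENSG00000111057, 52948871 to 52952901, plus strand). It had 370, 368 and 304 CPM in KO replicates 1, 2 and 3, against 310, 302 and 256 CPM in control replicates 1, 2 and 3. KO replicate 3 lies below control replicate 1, so the groups overlap, yet replicate 3 is the lowest library of both groups. The log2 FC of 0.26 (± 0.10 SE) did not pass (edgeR adjusted p = 0.142). Within numbered pairs the difference was 0.26, 0.28 and 0.25 on the log2 scale. With the replicate block KRT18 rose (log2 FC 0.26 ± 0.03, edgeR adjusted p = 5.20e-09). KRT18 passed in 1 of the 6 fits with a library left out, that without KO replicate 3 (log2 fold change 0.37, edgeR adjusted p = 0.0188). Over these fits its log2 fold change ran from 0.18 to 0.37, and the highest edgeR adjusted p was 0.336.

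Among the type II chains, KRT8 (ENSG00000170421, chromosome 12, 52897187 to 52949954, minus strand), the type II keratin of simple epithelia, had 527, 541 and 506 CPM in KO replicates 1, 2 and 3, against 477, 454 and 445 CPM in control replicates 1, 2 and 3. Every KO library was above every control library. KRT8 averaged 525 ± 17.6 CPM in KO and 459 ± 16.4 CPM in control (SD, n = 3 each), a log2 FC of 0.19 (± 0.06 SE) that did not pass (edgeR adjusted p = 0.0849). KRT8 rose in the fit with the replicate block (log2 FC 0.19 ± 0.03, edgeR adjusted p = 3.76e-06), in DESeq2 (log2 fold change 0.20, DESeq2 adjusted p = 0.0350), and without KO replicate 3 (log2 fold change 0.24, edgeR adjusted p = 0.0403). That last fit was the 1 of 6 with a library left out in which KRT8 passed (highest edgeR adjusted p = 0.265). KRT80 (ENSG00000167767, chromosome 12, 52168996 to 52192000, minus strand) had 90.2, 90.7 and 82.0 CPM in KO replicates 1, 2 and 3, against 80.8, 80.3 and 71.4 CPM in control replicates 1, 2 and 3. The groups do not overlap by a narrow margin, and replicate 3 is lowest in both. Its log2 FC was 0.18 (± 0.07 SE, edgeR adjusted p = 0.164), and KRT80 rose with the replicate block (log2 FC 0.18 ± 0.05, edgeR adjusted p = 0.00150). KRT80 passed in none of the 6 fits with a library left out (edgeR adjusted p 0.0527 to 0.340).

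KRT7, the type II keratin of glandular and ductal epithelium (ENSG00000135480, chromosome 12, 52232520 to 52252186, plus strand), had 122, 119 and 127 CPM in KO replicates 1, 2 and 3, against 115, 116 and 117 CPM in control replicates 1, 2 and 3. The KO libraries are all higher, by a small margin. The log2 FC of 0.08 (± 0.05 SE) did not pass (edgeR adjusted p = 0.404), nor did it with the replicate block (edgeR adjusted p = 0.117). The antisense gene KRT7-AS, which overlaps KRT7, had 2, 5 and 5 counts in KO replicates 1, 2 and 3 and 0 counts in each control library. These counts are too few for the filter, KRT7-AS was named after its values were seen, and the strand setting of the counting is not given.

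Hair keratins were at the edge of detection. KRT86 (ENSG00000170442, chromosome 12, 52249300 to 52309163, plus strand) had 10, 17 and 13 counts in KO replicates 1, 2 and 3, against 12, 12 and 30 counts in control replicates 1, 2 and 3. Control replicate 3 stands above the other 5 libraries. The log2 FC was -0.24 (± 0.40 SE, edgeR adjusted p = 0.773), and it was 0.23 without control replicate 3. KRT81 (ENSG00000205426, chromosome 12, 52285913 to 52291534, minus strand) had 8, 6 and 7 counts in KO replicates 1, 2 and 3, against 4, 2 and 7 counts in control replicates 1, 2 and 3. With the filter on low counts removed, its log2 FC was 0.86 (± 0.69 SE, edgeR adjusted p = 0.619). With KRT81, KRT83 and KRT86 counted as a single row, the sums were 18, 23 and 20 counts in KO and 16, 14 and 37 counts in control, and the log2 FC of 0.060 ± 0.35 had an adjusted p of 0.941 in edgeR. KRT83, a related hair keratin gene, had 0 counts in all 6 libraries.

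KRT17, a type I keratin of basal cells that is induced in wounds (ENSG00000128422, chromosome 17, 41619441 to 41624842, minus strand), had 9, 5 and 8 counts in KO replicates 1, 2 and 3, against 6, 0 and 4 counts in control replicates 1, 2 and 3. The 0 in control replicate 2 allows a level of up to 0.162 CPM (3 counts, counting error only). Without the filter the log2 FC was 1.29 (± 0.72 SE, edgeR adjusted p = 0.390). No difference was called for KRT17 or KRT81, and what size of difference this depth could show was not tested. The KRT81 groups did not overlap (0.312 to 0.428 CPM in KO, 0.108 to 0.298 CPM in control), but these values rest on 2 to 8 counts. The single KRT17 pseudogene row with counts held 2, 0 and 0 counts in KO and 2, 4 and 11 counts in control. These counts were higher in control, opposite to those of KRT17, so the direction of the KRT17 difference depends on how reads were divided between the rows. With pseudogene counts added, KRT17 still did not pass the filter.

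Over the 7 tested members, 1 passed as lower in KO, against 6.42% of all tested genes. In edgeR 0 of the 7 passed as higher, against 3.28% of all tested genes, while 3 had an unadjusted p under 0.05 in that direction, against 11.2% of all tested genes. At that unadjusted p 2 members were lower, against 14.2%. DESeq2 called 1 member higher, KRT8, against 4.03% of all tested genes, and 1 lower, against 6.57%. With no filter on low counts 1 was called higher, KRT18, against 2.5% of all tested genes, and 1 lower, against 4.54%. With the replicate block 2 of 7 fell, against 16.7% of all tested genes, and 3 of 7 rose, against 17.2%. With the term for the libraries numbered 3 alone, the same 2 fell and the same 3 rose, against 17.2% and 17.5% of all tested genes. Without both libraries numbered 3, KRT19 fell and KRT8, KRT18 and KRT80 rose, where 13.7% of tested genes fell and 11.7% rose. The groups did not overlap for 2 lower members (16.8% of all tested genes) and 3 higher ones (14.9%). The median log2 fold change was 0.08 for the 7 tested members and 0.00 for all tested genes.

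**Figure D2:**
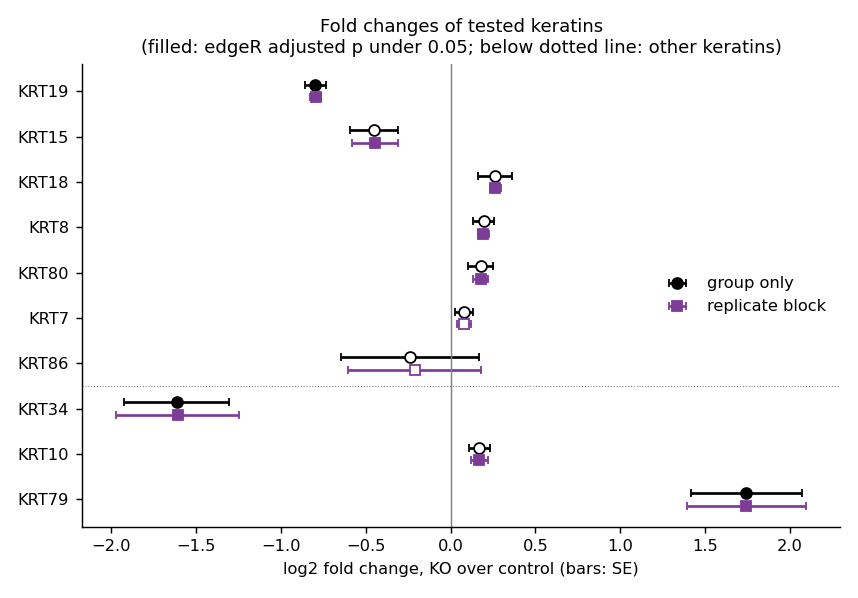
Log2 fold change of KO over control (horizontal axis) with SE bars for the 7 tested members and, below the dotted line, the 3 other tested keratins. Black circles are the fit with group only and purple squares the fit with replicate block, filled where the edgeR adjusted p is under 0.05; estimates of the fits are alike and the SE of KRT18 is 0.10 without the block and 0.03 with it.

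**Figure D3:**
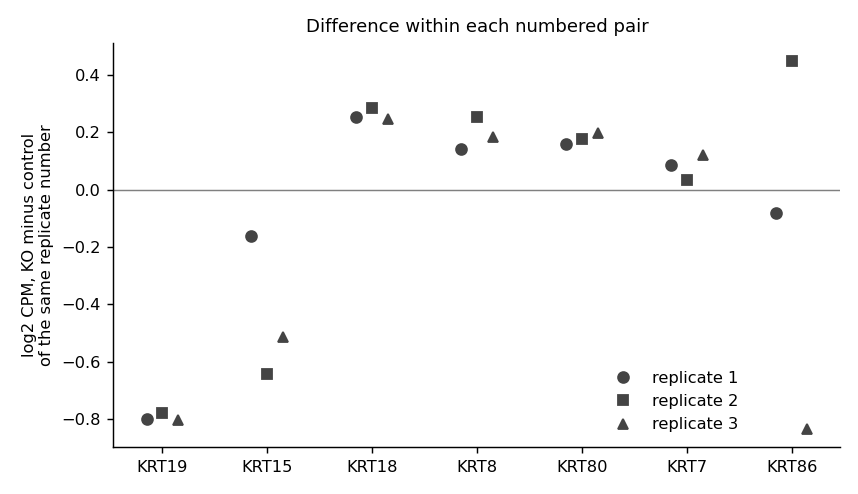
Difference in log2 CPM between the KO and the control library of the same replicate number (vertical axis) for each tested member, with circles, squares and triangles for pairs 1, 2 and 3. KRT19 is at -0.80, -0.78 and -0.80 and KRT18 at 0.26, 0.28 and 0.25, while the low-count KRT86 runs from -0.83 to 0.45.

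Scaled to the length of the main transcript, KRT19 was the most abundant of the 9 in both groups, at 292 ± 9.61 CPM per kb in KO and 506 ± 21.8 in control (SD, n = 3 each). KRT8 came next at 247 ± 8.27 CPM per kb in KO and 216 ± 7.70 in control, and then KRT18 at 222 ± 24.2 in KO and 185 ± 18.8 in control. KRT7 followed at 69.8 ± 2.25 CPM per kb in KO and 66.0 ± 0.54 in control, and KRT80 at 22.7 ± 1.27 in KO and 20.1 ± 1.37 in control. KRT15 was at 1.09 ± 0.05 CPM per kb in KO and 1.49 ± 0.21 in control. KRT86 averaged 0.321 ± 0.08 CPM per kb in KO and 0.374 ± 0.18 in control, KRT17 0.239 ± 0.07 in KO and 0.0916 ± 0.09 in control, and KRT81 0.194 ± 0.03 in KO and 0.103 ± 0.05 in control. KRT86 was above the other 2 in every control library but below KRT17 in KO replicate 1, and KRT17 and KRT81 differed by less than their spread in both groups. The lead of KRT19 in KO depended on the length used. Per kb of coding sequence KRT8 was at 362 ± 12.1 CPM in KO and KRT19 at 338 ± 11.1, whereas in control KRT8 was at 316 ± 11.3 and KRT19 at 587 ± 25.2.

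The ratio of type I to type II chains among the 9 members was lower in every KO library than in any control library. The type I members did not move together. KRT19 (406 CPM in KO, 704 CPM in control) and the scarce KRT15 had lower KO means. KRT18 (347 CPM in KO, 289 CPM in control) and the scarce KRT17 had higher ones. The 4 type I members summed to 786, 765 and 726 CPM in KO replicates 1, 2 and 3, against 1032, 981 and 991 CPM in control replicates 1, 2 and 3. The 5 type II members summed to 740, 752 and 716 CPM in KO replicates 1, 2 and 3, against 673, 651 and 635 CPM in control replicates 1, 2 and 3. Per kb of transcript the type I sum was 1.52 ± 0.04 times the type II sum in KO and 2.29 ± 0.04 times in control (SD, n = 3 each). Per kb of coding sequence the same ratio was 1.19 ± 0.03 in KO and 1.79 ± 0.04 in control. These ratios carry no test, since they are sums over chosen genes. KRT10, a type I keratin outside the 9 at 60.0 CPM in KO and 53.4 CPM in control, is not in them. KRT19 made up 25.8% to 28.9% of the counts of the 9 genes in KO libraries and 41.1% to 44.7% in controls.

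Between partners, KRT8 had 1.42, 1.47 and 1.67 counts per KRT18 count in KO replicates 1, 2 and 3, against 1.54, 1.5 and 1.74 in control replicates 1, 2 and 3. The ratio was highest in replicate 3 of each group and the groups overlap, while in each numbered pair the KO library had the lower ratio. KRT19 had 1.11, 1.06 and 1.37 counts per KRT18 count in KO replicates 1, 2 and 3, against 2.31, 2.22 and 2.84 in control replicates 1, 2 and 3. The groups are fully separate for this ratio. All 9 genes together took 0.145% to 0.152% of the counts of KO libraries and 0.161% to 0.169% of control libraries. Vimentin had 3.8, 3.73 and 3.30 counts for each count of the 9 keratins in KO replicates 1, 2 and 3, against 4.28, 4.30 and 3.49 in control replicates 1, 2 and 3. The groups overlap, and the KO library was the lower one in each numbered pair.

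**Figure D4:**
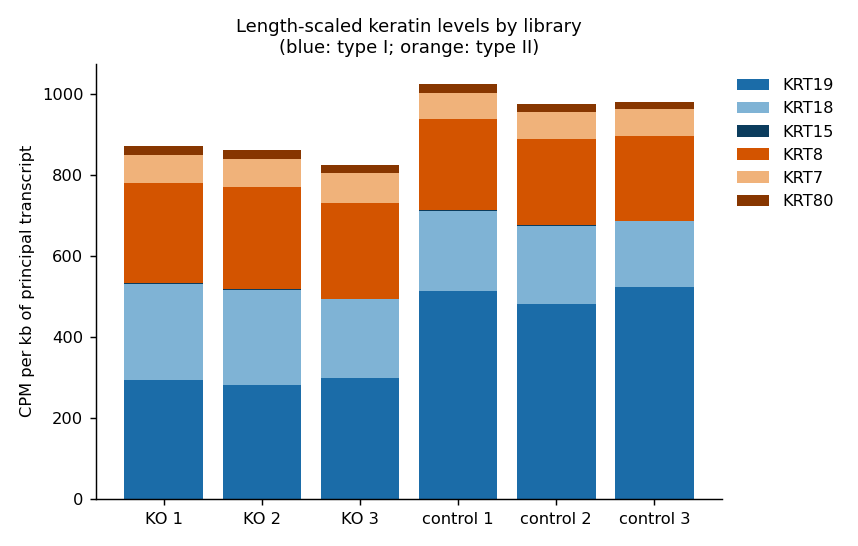
Stacked CPM per kb of main transcript (vertical axis, from 0) of KRT19, KRT18 and KRT15 (type I, blue) and KRT8, KRT7 and KRT80 (type II, orange) in the 3 KO and 3 control libraries. The KRT19 segment averages 292 in KO and 506 in control and the KRT8 segment 247 in KO and 216 in control.

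Of 46 other keratin genes listed from the table, 34 had no count in any library, 9 had at most 8 counts in a library and did not pass the filter, and 3 were tested. KRT34, a type I hair keratin of the same chromosome 17 cluster as KRT19, had 0.375, 0.467 and 0.660 CPM in KO replicates 1, 2 and 3, against 1.51, 1.35 and 1.74 CPM in control replicates 1, 2 and 3. KRT34 fell (log2 FC -1.61 ± 0.31, edgeR adjusted p = 0.0138), with the groups well apart at low counts, but it did not pass without KO replicate 1, KO replicate 2 or control replicate 1 (highest edgeR adjusted p = 0.0664). KRT79, a type II keratin known from the follicle infundibulum in mouse, had 1.5, 1.51 and 2.31 CPM in KO replicates 1, 2 and 3, against 0.614, 0.593 and 0.383 CPM in control replicates 1, 2 and 3. KRT79 rose (log2 FC 1.74 ± 0.33, edgeR adjusted p = 0.0127) and did not pass without control replicate 2 (edgeR adjusted p = 0.0515). KRT10, the type I keratin of suprabasal epidermis, was at 60.0 ± 0.43 CPM in KO and 53.4 ± 2.79 CPM in control (SD, n = 3 each). It did not pass (log2 FC 0.17 ± 0.06, edgeR adjusted p = 0.134) and rose with the replicate block (edgeR adjusted p = 0.00870). The stratified-epithelium genes KRT5 and KRT14 had 0 and 8 counts in all KO libraries together and 4 and 8 in all control libraries.

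In genome order, KRT34, KRT15 and KRT19 lie in the same keratin cluster of chromosome 17 and all had lower KO means, as did KRTAP2-3 (log2 FC -0.40 ± 0.16, edgeR adjusted p = 0.170, and 0.0328 with the replicate block). KRT10 further away did not, nor did the low-count genes KRT17 and KRT16 on the other side of KRT19, which had 22 and 11 counts in all KO libraries together and 10 and 2 in all control libraries. For KRT19 and for KRT8, 10 flanking tested genes were taken, in equal numbers from each side in genome order, among those found by name in GENCODE release 29. Among those flanking KRT19, KRT34 was the one that passed without the block. The next of them on the far side, EIF1 and JUP, stood at log2 FC 0.09 ± 0.06 (EIF1) and -0.07 ± 0.12 (JUP). Among those flanking KRT8, KRT79 was the one that passed without the block. The next of them beyond KRT18, EIF4B, had a log2 FC of -0.15 (± 0.07 SE). Of all tested genes, 6.42% fell and 3.28% rose without the block. These neighbours were picked out after the values were seen.

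The genes whose level over the 6 libraries was most like that of KRT19, out of 10800 non-keratin genes with a mean of at least 5 CPM, were LSS, SQLE and B3GNT5. Their centred log2 CPM differed from that of KRT19 by a root-mean-square of 0.036, 0.041 and 0.041, and their log2 fold changes were -0.75, -0.80 and -0.79. For KRT15 the nearest were a gene listed as ENSG00000291067, LMBR1L and CHAC1, with root-mean-square differences of 0.050, 0.055 and 0.061. For KRT8 they were ZDHHC13, STARD7 and CEP55, at 0.016, 0.016 and 0.017, with log2 fold changes of 0.22, 0.19 and 0.17. Likeness over 6 libraries in 2 groups is a description only.

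Genes that tie keratin filaments to junctions were examined from a list. Of 16 tested genes of desmosomes and hemidesmosomes, the junctions that anchor keratin to neighbouring cells and to the matrix, 7 fell and 9 did not pass, with a median log2 fold change of -0.18. With the replicate block 10 fell. Over all tested genes, 6.42% fell without the block and 16.7% with it. The list was chosen with earlier results of these data known, so its counts beside these shares are a description only. DSC2, a desmosomal cadherin, had 16, 14.7 and 18.1 CPM in KO replicates 1, 2 and 3, against 26.5, 26.1 and 27.5 CPM in control replicates 1, 2 and 3 (log2 FC -0.71 ± 0.09, edgeR adjusted p = 0.00204). COL17A1, the transmembrane collagen of hemidesmosomes, was at 17.1 ± 2.19 CPM in KO and 26.7 ± 0.39 CPM in control (log2 FC -0.64 ± 0.10, edgeR adjusted p = 0.00518). ITGB4, the hemidesmosome integrin subunit that binds plectin, had the largest decrease of the list (log2 FC -1.70 ± 0.11, edgeR adjusted p = 6.08e-05). PLEC, the plectin gene, named after its values were seen, was at 2246 ± 139 CPM in KO and 2721 ± 104 CPM in control (log2 FC -0.28 ± 0.07, edgeR adjusted p = 0.0410). The plaque proteins DSP and JUP, also named after their values were seen, did not pass (log2 FC 0.12 ± 0.11 for DSP and -0.07 ± 0.12 for JUP). Without KO replicate 1, control replicate 1 or control replicate 2, 4 genes of this list fell.

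Among 9 tested intermediate filament genes other than keratins, 1 fell and 8 did not pass, with a median log2 fold change of -0.07. NES, the gene of the stem-cell filament protein nestin, had 46.1, 41.7 and 43.1 CPM in KO replicates 1, 2 and 3, against 68.3, 69.3 and 77.5 CPM in control replicates 1, 2 and 3 (log2 FC -0.72 ± 0.07, edgeR adjusted p = 6.54e-04). VIM, named after its values were seen, had 5794, 5654 and 4756 CPM in KO replicates 1, 2 and 3, against 7290, 7019 and 5674 CPM in control replicates 1, 2 and 3. As for KRT18, replicate 3 was the lowest of each group, and VIM passed as lower with the replicate block (edgeR adjusted p = 1.14e-11) but not without it (log2 FC -0.30 ± 0.11, edgeR adjusted p = 0.132). With the block 3 genes of this list fell and 2 rose. Of all tested genes, 6.42% fell without the block, and with it 16.7% fell and 17.2% rose.

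The shares of all tested genes beside the list counts that follow were 6.42% lower and 3.28% higher without the block. With the block they were 16.7% lower and 17.2% higher. Of 11 tested proteins that bind or regulate keratin filaments, 1 fell and 10 did not pass, and with the block 1 of these rose. SFN, an epithelial 14-3-3 protein, was at 106 ± 1.90 CPM in KO and 138 ± 9.07 CPM in control (log2 FC -0.38 ± 0.06, edgeR adjusted p = 0.00785), and it did not pass without KO replicate 1 (edgeR adjusted p = 0.0573). Of 18 tested transcription factors of keratin genes, 1 fell and 17 did not pass, with a median log2 fold change of 0.02; with the block 2 fell and 2 rose. JUN, an AP-1 subunit, was at 211 ± 28 CPM in KO and 306 ± 22.2 CPM in control (log2 FC -0.54 ± 0.10, edgeR adjusted p = 0.0118) and did not pass without KO replicate 1 or 2 (highest edgeR adjusted p = 0.0603). Of 5 tested hair shaft genes, 1 fell (2 with the block, where 1 also rose), S100A3, at 10.5 ± 1.89 CPM in KO and 15.2 ± 0.81 CPM in control (log2 FC -0.54 ± 0.13, edgeR adjusted p = 0.0370). S100A3 passed in 1 of the 6 fits with a library left out, that without KO replicate 3. Of 3 tested genes of cornification, FLG, the filaggrin gene, rose, at 1.79 ± 0.46 CPM in KO and 0.554 ± 0.21 CPM in control (log2 FC 1.71 ± 0.36, edgeR adjusted p = 0.0196), and it did not pass without KO replicate 1, KO replicate 2 or control replicate 1 (highest edgeR adjusted p = 0.0843).

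**Figure D5:**
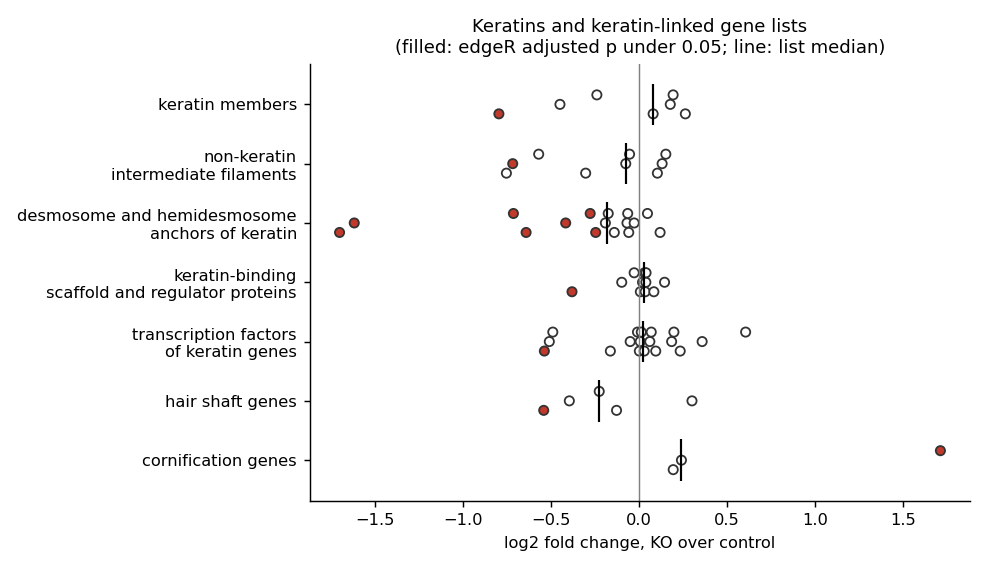
Log2 fold change of KO over control (horizontal axis) of each tested gene in the keratin members and 6 lists of keratin-linked genes, with filled points for an edgeR adjusted p under 0.05 and a line at each list's median. The junction anchors have 7 filled points, all below 0, and the keratin members have 1, KRT19 at -0.80.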

How the data were processed

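STAR 2.7.9a, FastQC 0.11.9, R 4.1.1, featureCounts and build hg38 are named in the submitters' processing notes. The authors deposited unnormalized read counts for each gene in 6 libraries, made with a stranded mRNA kit per the labels' protocols. Which annotation, strand setting and rule for multi-mapped reads they chose is not given in the sources used here, so overlapping, antisense and near-identical genes are uncertain. Columns were matched to samples by library name.

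From these counts, 14704 genes passed edgeR's filterByExpr and were scaled with TMM factors and tested with the quasi-likelihood test (edgeR 4.0.16, R 4.3.3; group as the single term, robust, threshold 0.05). The SE is the absolute log2 fold change divided by the square root of the F statistic. The procedure was tested on simulated data, where the share of unchanged genes among the calls ran somewhat above the nominal rate. A first simulation with gene-wise dispersions exceeded the limit set on unchanged genes called, and the simulation, not the procedure, was then changed to trended dispersions. DESeq2 1.42.0 and the alternatives in the closing section were run beside it. Genes were named by rule: all members, tested keratins, in each list up to 3 called genes a direction, ranked by adjusted p, the 3 of most similar pattern for 3 members, and the targeted genes. Others are marked in the text. The members and lists were chosen with earlier results of these data known.

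Same-numbered libraries deviated together across 10032 genes (correlations 0.55, 0.45 and 0.83), all over 0.1, the criterion for taking the numbers as pairs. The labels do not state a pairing, and libraries numbered 1 and 2 also correlated across numbers (0.58 and 0.59), so the data set apart only those numbered 3. Sequences, positions and shared 50-base windows are from GENCODE release 29 (GRCh38), not necessarily the annotation behind the counts; 88.2% of tested genes were found in it by name. The main transcript is the APPRIS principal one with the longest coding sequence.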

Additional observations from a re-analysis of the deposited data

How the results depend on the processing

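KRT19 fell in every setting tried, with log2 fold changes of -0.83 to -0.76 in the 6 fits with a library left out. The number of genes past the threshold moved with the replicate block (2522 higher and 2461 lower, against 483 and 944 without it), with a term for the libraries numbered 3 alone (2570 and 2532; added after the data were seen), without both libraries numbered 3 (1731 and 2023), and with a library left out (136 to 777 higher, 436 to 964 lower). Members called higher were 1 in DESeq2 (KRT8, log2 fold change 0.20), 1 with no filter on low counts (KRT18, 0.26), 3 with the block and with the term for libraries numbered 3 (in both KRT8 0.19, KRT18 0.26 and KRT80 0.18), 3 without both libraries numbered 3 (KRT8 0.20, KRT18 0.27 and KRT80 0.17), and 0 to 2 with a library left out, where KRT8 ran from 0.17 to 0.24 and KRT18 from 0.18 to 0.37. Members called lower were 2 with the block and with the term for libraries numbered 3 (KRT15 at -0.44), and 1 in every other setting. KRT86 changed sign, at 0.23 without control replicate 3, 0.23 without both libraries numbered 3 and 0.060 with KRT81, KRT83 and KRT86 summed (range with a library left out -0.45 to 0.23), and ETV5 did so without control replicate 2 (-0.018; range with a library left out -0.018 to 0.043). The 8 fixed lists held 3 tested other keratins, 9 other intermediate filament genes, 16 junction genes and 11 keratin-binding or regulating proteins. They also held 18 tested transcription factors, 5 hair shaft genes and 3 cornification genes. Over the genes of these lists, 2 were higher and 12 lower, beside 3.28% and 6.42% of all tested genes. With the block these counts were 9 and 19, beside 17.2% and 16.7%. With the term for libraries numbered 3 they were 10 and 20, beside 17.5% and 17.2%. Without both of these libraries they were 6 and 18, beside 11.7% and 13.7%. With a library left out they were 1 to 3 higher (0.903% to 5.17% of all tested genes) and 5 to 12 lower (2.89% to 6.42%). The ratio of type I to type II chains among the 9 members was 1.19 in KO and 1.79 in control by coding length, an alternative added once values were known. Among the other named genes, the block also changed calls, including those of KRT10, VIM, KRTAP2-3, ENSG00000291067, LMBR1L, STARD7 and CEP55. The cause of these shifts was not tested. With 10 to 22 counts per group, KRT17 and KRT81 are limited by depth.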
